A study of Mus musculus with 6 samples.

Results

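The solute carrier family Slc25 holds the transporters of the mitochondrial inner membrane, and its transcripts were examined in livers of Lox control and SIRT1 LKO mice. Its members were the probes, other than control spots, that carry a gene name starting with Slc25a on the array, without Slc25a13, Slc25a15 and Slc25a20. The rule gave 29 of the 27962 gene names on the array, read by 50 of its 41174 probes. SIRT1 is an NAD-dependent protein deacetylase. SIRT1 LKO mice lack it in the liver, in hepatocytes according to the series title, and of the Lox controls the labels give only that name. All animals were male, 10 weeks old, mainly of C57BL/6 background, fed chow with free access to food and killed at 4 pm. Each group had 3 pools of liver RNA with 2 mice in each, and every pool went onto its own Agilent whole mouse array, read in 1 colour. Which exons were deleted, and by which Cre, is not stated in the labels.

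Carriers of this family exchange metabolites between cytosol and mitochondrial matrix, among them ADP for ATP, phosphate, citrate, malate, aspartate, glutamate and cofactors. They are built from 3 repeats of a shared fold, each opened by a signature motif in which a proline is followed at fixed distances by an acidic and a basic residue. In liver they serve ATP export, the malate-aspartate shuttle, urea and glucose synthesis, and the export of citrate for fatty acid synthesis.

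Each value below rests on a DNA probe of 60 bases, so the sequences of the array show what was measured. A match to the signature lies inside the probe in 4 of the 50 Slc25 probes (8.0%) and in 257 of all 41174 probes (0.624%). A match is a proline codon, an aspartate or glutamate codon 2 places on and a lysine or arginine codon 3 places after that. The reading frame had to be free of stop codons, and whether it is the coding frame was not checked. This is a description of the probe design. The probes below show a match in carriers of different substrates, Slc25a3 for phosphate, Slc25a26 for S-adenosylmethionine and Slc25a30, a relative of the uncoupling proteins. Capitals mark the codons from the proline to the basic residue.
Slc25a3, chr10:90680977-90681034, minus strand: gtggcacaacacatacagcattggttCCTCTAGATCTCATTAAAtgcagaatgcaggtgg
Slc25a26, chr6:94686499-94687292, plus strand: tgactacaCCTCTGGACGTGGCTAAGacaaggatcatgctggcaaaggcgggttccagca
Slc25a30, chr14:70449984-70450552, minus strand: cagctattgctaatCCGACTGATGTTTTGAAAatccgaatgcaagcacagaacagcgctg

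Positions follow the array files (mm7). The Slc25a26 and Slc25a30 probes cover 794 and 569 bases of the genome with their 60 bases, so each spans a gap in the genome, as at a splice junction. Of the 50 probes, 6 span such a gap, and 5 of these were tested. The gap-spanning probes below, called junction probes, belong to Slc25a17, the cofactor carrier of the peroxisome, and Slc25a25, an ATP-Mg/phosphate carrier, and are shown because the same genes are also read by probes without a gap. The signature was not found in these letters, so no base is in capitals.
Slc25a17, chr15:81408143-81411550, minus strand: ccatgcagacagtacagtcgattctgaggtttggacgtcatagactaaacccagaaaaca
Slc25a25, chr2:32424723-32425052, minus strand: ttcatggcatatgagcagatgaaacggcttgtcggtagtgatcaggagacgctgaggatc

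Each value is a log2 intensity from which the 75th percentile of its array was subtracted, and a difference is LKO minus control on that scale, with the control and LKO means given ± SD (n = 3 pools each). Levels are compared between pools, never between probes. Tested were the probes that stood well above background in every pool of 1 or both groups, 23591 on the array and 39 Slc25 probes of 26 genes. Of these 39 probes, 36 were well above background on all 6 arrays. The 11 probes not tested include every probe of Slc25a18, a glutamate carrier, Slc25a31, the germ cell ADP/ATP carrier, and Slc25a34. The test is that of limma, and p-values were adjusted by Benjamini-Hochberg over the 23591 probes, with a threshold of 0.05. The labels do not say how the pooled mice were related, and p-values measure the spread between these pools.

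The 75th percentile of intensity was between 1005 and 1056 in 5 arrays and 1289 in LKO pool 3. Slide 1 held all controls, slide 2 held LKO pools 1 and 2, and slide 3 held LKO pool 3, so slide and genotype cannot be told apart. LKO pool 3 stood apart. By the SD of log2 differences over tested probes it lay 0.459 and 0.472 from the other LKO pools, which lay 0.267 from each other, and 0.492 to 0.541 from the controls, which lay 0.307 to 0.454 from each other. Set against the scanner files, the authors' value table matched to 1% in 99.8% of probes in each of the other 5 samples and in 0.853% in LKO pool 3. Values below are from the scanner files unless the value table is named, and many are also given with the value table or without LKO pool 3.

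The deleted gene was read by 2 probes. At the brighter Sirt1 probe the controls read 0.29, 0.37 and 0.24 and the LKO pools -0.07, 0.09 and 0.16. The LKO pools lay below all controls, with a difference of -0.24 (SE 0.10, adjusted p = 0.243). It was -0.29 when LKO pool 3 came from the value table, and -0.29 again when that pool was left out. The other Sirt1 probe differed by -0.02 (adjusted p = 0.941), with overlapping groups. With the value table it differed by -0.19 (adjusted p = 0.238) and without LKO pool 3 by -0.13 (adjusted p = 0.346), and in both cases the LKO pools lay below all controls. Whether either probe lies in the deleted part is not given, so these values do not check the labels. Hepatocyte markers were present, with all 10 probes of 7 genes such as Alb and Cps1 tested, 6 higher and 4 lower, none past the threshold, and a summed relative intensity of 1290 to 1583 in the controls and 1401 to 1699 in the LKO pools. A probe of Hnf4a, a transcription factor of hepatocytes, differed by -0.44 with every LKO pool below every control, and passed without LKO pool 3 (-0.56, adjusted p = 0.0492), while the other Hnf4a probes differed by -0.23 and -0.08.

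No Slc25 probe passed the threshold. The count was 0 of 39 in limma, against 15 of 23591 probes (0.0636%) on the whole array, and the lowest adjusted p of a member was 0.138, that of Slc25a12. At an unadjusted p under 0.05 there were 4 Slc25 probes (10.3%), those of Slc25a12, Slc25a27, Slc25a23 and Slc25a4, against 21.2% of all tested probes. The LKO and control pools did not overlap in 6 of the 39 Slc25 probes (15.4%), against 28.8% of all tested probes. Of these, 5 were higher in the LKO livers (12.8%, against 14.9% of all tested probes) and 1 was lower (2.56%, against 13.9%). With the slide as a random block 2 of 39 had an unadjusted p under 0.05, against 11.2%, and with normexp background correction 3 of 39 did not overlap, against 15.5%. At a share as low as 0.0636%, a count of 0 among 39 probes says little about the family. The other Slc25 shares lay below those of the array, that of the higher non-overlapping probes only slightly. These shares were not compared by a test, and several probes belong to the same gene.

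The direction was mostly upward and the size small. In 29 of 39 Slc25 probes (74.4%) the LKO mean was the higher one, against 52.7% of all tested probes, and the median difference was 0.10 against 0.02 over all tested probes. Differences ran from -0.33 (Slc25a23) to 0.82 (Slc25a27). The median of the 39 probes was 0.51, 0.69 and 0.67 in the control arrays and 0.82, 0.76 and 0.76 in the LKO arrays, so control pool 1 was the lowest array. For 31 of the 39 probes the 95% interval of the difference lay within 1 log2 unit of 0, that is under 2-fold either way, and for 23 within 1.5-fold. These intervals come from the fit without a slide term, whereas the correlation within slides was 0.31, so they may be too narrow.

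**Figure D1:**
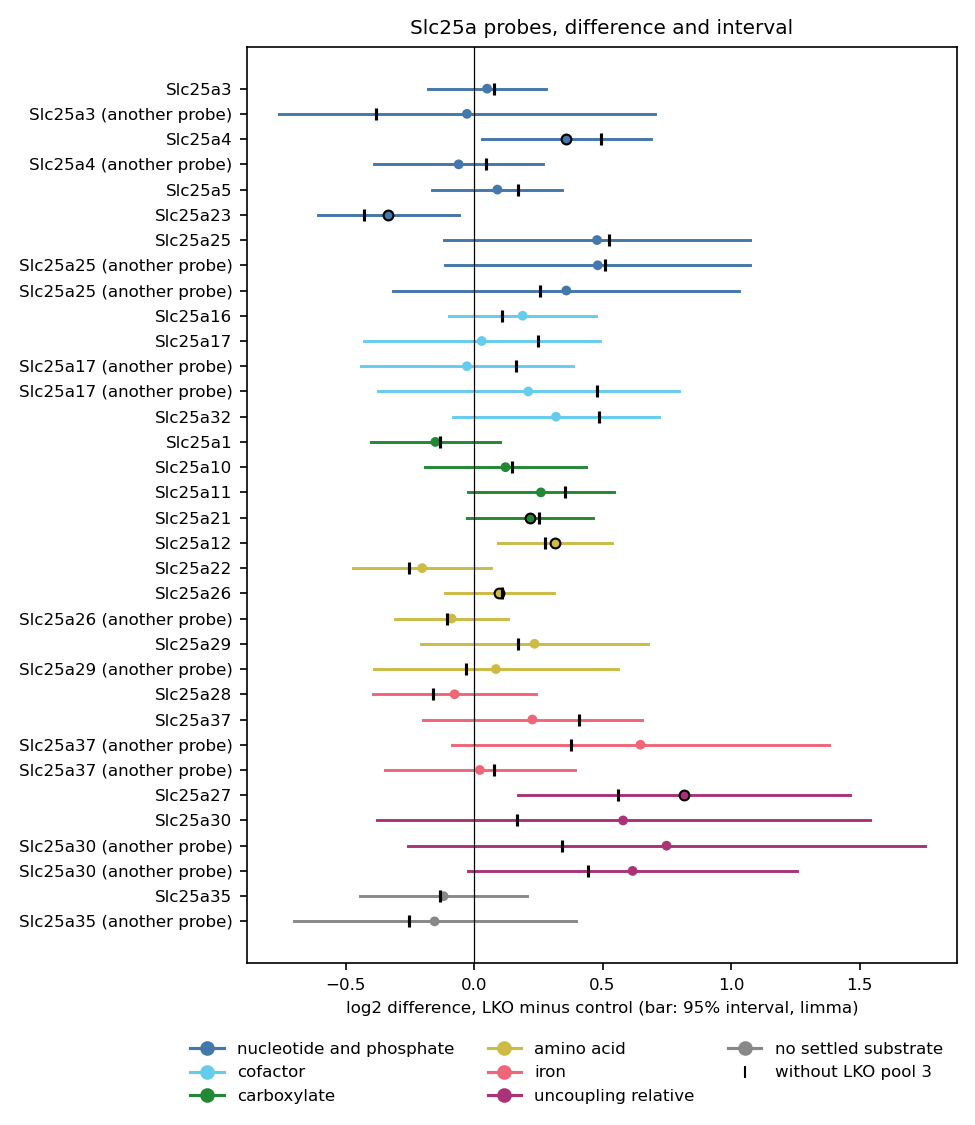
The x axis is the log2 difference (LKO minus control) of 34 of the 39 tested Slc25 probes, those of genes named by rule or read by several tested probes, with dots for all 6 pools, bars for the 95% interval from limma and colours for the role of the carrier; a black outline marks the 6 probes whose groups do not overlap and a black tick the difference without LKO pool 3. The bars of 4 probes leave out 0, and the widest belong to Slc25a30, Slc25a37 and a second probe of Slc25a3.

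Without LKO pool 3 the Slc25 count was still 0 in limma while 2.96% of all tested probes passed, and the lowest adjusted p of a member was 0.0522, that of Slc25a4. In that fit 17 of 39 Slc25 probes had groups that did not overlap, against 51.6% of all tested probes, and 10 had an unadjusted p under 0.05, against 30.6%. With LKO pool 3 taken from the value table the count was 0 as well (1.31% of all probes passed), with 12 non-overlapping Slc25 probes against 34.1% and 8 at an unadjusted p under 0.05 against 26.3%. The median Slc25 difference was 0.16 without that pool and 0.11 with the value table, and 30 and 28 of the 39 probes were then higher in the LKO pools. Of all tested probes 53.0% were higher without LKO pool 3. The share was 55.7% with the value table.

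**Figure D2:**
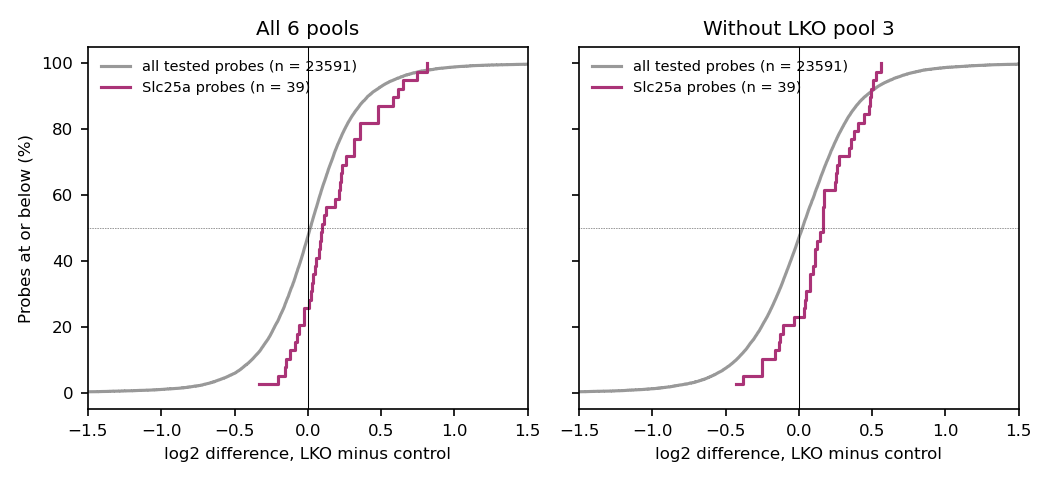
The x axis is the log2 difference (LKO minus control) and the y axis the percentage of probes at or below it, in grey for all 23591 tested probes and in purple for the 39 Slc25 probes. The purple curve crosses 50% at 0.10 with all 6 pools and at 0.16 without LKO pool 3, where the grey curve is at 0.02 in both panels, and the curves meet near the top.

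Carriers of adenine nucleotides and phosphate supply the ATP synthase and export its product. Of 11 tested probes in this role, 8 were higher and 3 lower in the LKO livers, none past the threshold (median 0.05). Slc25a4, the ADP/ATP carrier typical of heart and muscle, read 2.38, 2.45 and 2.41 in the controls and 2.85, 2.96 and 2.50 in the LKO pools. All 3 LKO pools lay above the controls, pool 3 by the least, and the difference was 0.36 (2.41 ± 0.04 against 2.77 ± 0.24, 1.28-fold, 95% interval 0.03 to 0.69, adjusted p = 0.208). A second Slc25a4 probe differed by -0.06, with LKO values of 0.45, 0.47 and 0.14 inside the control range or just below it. That sign rested on LKO pool 3, which read 0.70 in the value table, where the difference was 0.13, and without the pool it was 0.05. Of the skeletal muscle markers only Mylpf was bright enough to test, at a difference of 0.05, and Acta1, Ckm, Myh4, Pvalb and Tnnt3 were not.

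Slc25a5, the ADP/ATP carrier found in most tissues, read 7.27, 7.32 and 7.34 in the controls and 7.46, 7.51 and 7.24 in the LKO pools. LKO pools 1 and 2 lay above the controls and pool 3 below them, and the difference was 0.09 (95% interval -0.16 to 0.34, adjusted p = 0.651). In the value table LKO pool 3 read 7.56, above all controls. Slc25a3, the phosphate carrier, read 5.21, 5.35 and 5.39 in the controls and 5.37, 5.42 and 5.32 in the LKO pools, overlapping groups that differed by 0.05 (95% interval -0.18 to 0.28, adjusted p = 0.790). The Slc25a3 probe printed above with its signature differed by -0.03, with LKO pool 3 at -0.91 and the other pools of both groups between -2.05 and -1.36. The value table has -1.86 for that pool.

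The ATP-Mg/phosphate carriers, which set the adenine nucleotide content of the matrix and bind calcium, gave values in both directions. Slc25a23 had the most negative difference among the tested probes named Slc25a on the array. It read -0.86, -0.87 and -0.80 in the controls and -1.23, -1.31 and -0.98 in the LKO pools. Every LKO pool lay below every control, and the difference was -0.33 (-0.84 ± 0.04 against -1.17 ± 0.17, 1.26-fold, 95% interval -0.61 to -0.06, adjusted p = 0.174, and 0.0568 without LKO pool 3). Slc25a25, its relative, read 4.76, 5.37 and 5.77 in the controls and 5.76, 5.89 and 5.69 in the LKO pools. The controls were spread over about 1 log2 unit (SD 0.51) and the LKO pools were close together (SD 0.10), with control pool 3 inside the LKO range. The difference was 0.48 (95% interval -0.12 to 1.07, adjusted p = 0.315), or 0.21 without control pool 1 and 0.71 without control pool 3, and both other Slc25a25 probes had the same sign, at 0.48 and, for the junction probe printed above, 0.36. In all 3 Slc25a25 probes control pool 1 was lowest and control pool 3 highest of the controls. Slc25a24, another carrier of this kind, differed by 0.04 with SDs of 0.05 and 0.04. Slc25a36, a pyrimidine nucleotide carrier, differed by 0.05 (0.29 with the value table). The Slc25a36 probe was above background on 1 of 3 control arrays and on all LKO arrays.

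Cofactor carriers differed little with all pools. Of their 6 tested probes 5 were higher and 1 lower (median 0.15). Slc25a32, linked to folate and FAD transport, read 1.12, 1.07 and 1.13 in the controls and 1.73, 1.47 and 1.09 in the LKO pools. LKO pools 1 and 2 stood clear of the controls and pool 3 lay among them, also in the value table (1.10), with a difference of 0.32 (1.11 ± 0.03 against 1.43 ± 0.32, adjusted p = 0.317) that was 0.49 without pool 3 (adjusted p = 0.0630). Slc25a16, a carrier linked to coenzyme A, read 1.27, 1.39 and 1.53 in the controls and 1.502, 1.507 and 1.741 in the LKO pools, at a difference of 0.19 (adjusted p = 0.396) that was 0.01 with the value table.

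Slc25a17 was singled out after its values were seen, because its 3 tested probes placed LKO pool 3 in the same way. At the brightest probe the controls read 4.61, 4.52 and 4.49 and the LKO pools 4.81, 4.77 and 4.14, the last below every control. The second probe had controls of 3.37, 3.33 and 3.30 and LKO values of 3.44, 3.55 and 2.93, and the junction probe had controls of 1.23, 0.98 and 0.86 and LKO values of 1.58, 1.42 and 0.70. At all 3 probes LKO pools 1 and 2 lay above the controls and pool 3 below them. The differences were 0.03, -0.03 and 0.21 with all pools (adjusted p of 0.649 to 0.945) and 0.25, 0.16 and 0.48 without pool 3 (adjusted p of 0.0958 to 0.270). In the value table LKO pool 3 read 4.75, 3.38 and 1.11.

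Carboxylate carriers link the citric acid cycle to the cytosol. Of their 4 tested genes 3 were higher and 1 lower in the LKO livers (median 0.17). Slc25a11, the oxoglutarate-malate carrier of the malate-aspartate shuttle, read 5.14, 5.24 and 5.31 in the controls and 5.62, 5.56 and 5.30 in the LKO pools. LKO pools 1 and 2 were above every control and pool 3 within the control range, and the difference was 0.26 (95% interval -0.02 to 0.54, adjusted p = 0.266, and 0.0816 without pool 3). Slc25a21, a carrier of oxodicarboxylates, read -0.59, -0.60 and -0.69 in the controls and -0.27, -0.47 and -0.48 in the LKO pools, groups that did not overlap, at a difference of 0.22 (adjusted p = 0.276). With the value table, where LKO pool 3 was -0.94 and below the controls, that difference was 0.06.

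Slc25a1, the citrate carrier that feeds fatty acid synthesis, read 4.14, 4.32 and 4.41 in the controls and 4.12, 4.19 and 4.10 in the LKO pools. Pool 2 of the LKO livers lay inside the control range and the others just below it, with a difference of -0.15 (95% interval -0.40 to 0.10, adjusted p = 0.438). Slc25a10, the dicarboxylate carrier, read 5.28, 5.69 and 5.51 in the controls and 5.55, 5.72 and 5.57 in the LKO pools, overlapping groups that differed by 0.12 (95% interval -0.19 to 0.44, adjusted p = 0.623), or by 0.05 with the value table.

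Amino acid carriers held the member with the lowest p. Slc25a12, an aspartate-glutamate carrier of the malate-aspartate shuttle, read 1.53, 1.63 and 1.64 in the controls and 1.88, 1.88 and 2.00 in the LKO pools. All LKO pools lay above all controls, including pool 3, and the difference was 0.31 (1.60 ± 0.06 against 1.92 ± 0.07, 1.24-fold, SE 0.09, 95% interval 0.09 to 0.53, adjusted p = 0.138). Using the value table it was 0.27 (adjusted p = 0.105), and leaving out LKO pool 3 it was 0.28 (adjusted p = 0.108). Slc25a13, the aspartate-glutamate carrier that the rule leaves out, differed by 0.00 (95% interval -0.35 to 0.34, adjusted p = 0.994).

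Slc25a22, a glutamate carrier, read 3.09, 3.22 and 2.95 in the controls and 2.87, 2.79 and 2.98 in the LKO pools. LKO pools 1 and 2 were below every control and pool 3 within them, with a difference of -0.20 (95% interval -0.47 to 0.07, adjusted p = 0.340). In the value table LKO pool 3 read 2.89, below every control, and the difference was -0.23 (adjusted p = 0.196). Of the 7 tested probes for amino acid carriers 5 were higher and 2 lower (median 0.08). Slc25a26, the S-adenosylmethionine carrier, had 1 probe whose groups did not overlap at a difference of 0.10 (adjusted p = 0.556), while the junction probe printed above differed by -0.09 with overlapping groups (adjusted p = 0.614). Slc25a29, a carrier of basic amino acids, differed by 0.24 and 0.08 at its probes, and Slc25a2, an ornithine carrier, by 0.01.

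The mitoferrins bring iron to the matrix for heme and iron-sulfur clusters. Slc25a37, mitoferrin 1, read 3.14, 3.23 and 3.27 in the controls and 3.76, 3.48 and 3.08 in the LKO pools. LKO pools 1 and 2 lay above the controls and pool 3 below them, at a difference of 0.23 (95% interval -0.20 to 0.65, adjusted p = 0.491), or 0.41 without pool 3 (adjusted p = 0.0941). Its other probes differed by 0.65 and 0.02 (adjusted p of 0.278 and 0.950). Slc25a28, mitoferrin 2, read 2.71, 2.75 and 2.89 in the controls and 2.48, 2.77 and 2.88 in the LKO pools, overlapping groups that differed by -0.08 (adjusted p = 0.770), or by -0.16 without pool 3. Erythroid cells also carry Slc25a37, and of 8 tested erythroid marker probes (Alas2, Klf1 and globins) 4 were higher and 4 lower, with a summed relative intensity of 178 to 199 in the controls and 169 to 229 in the LKO pools, while Epb42 was not well above background. The part of such cells in the Slc25a37 values was not tested. In RNA from whole liver fewer cells of a type and less RNA per cell cannot be told apart.

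**Figure D3:**
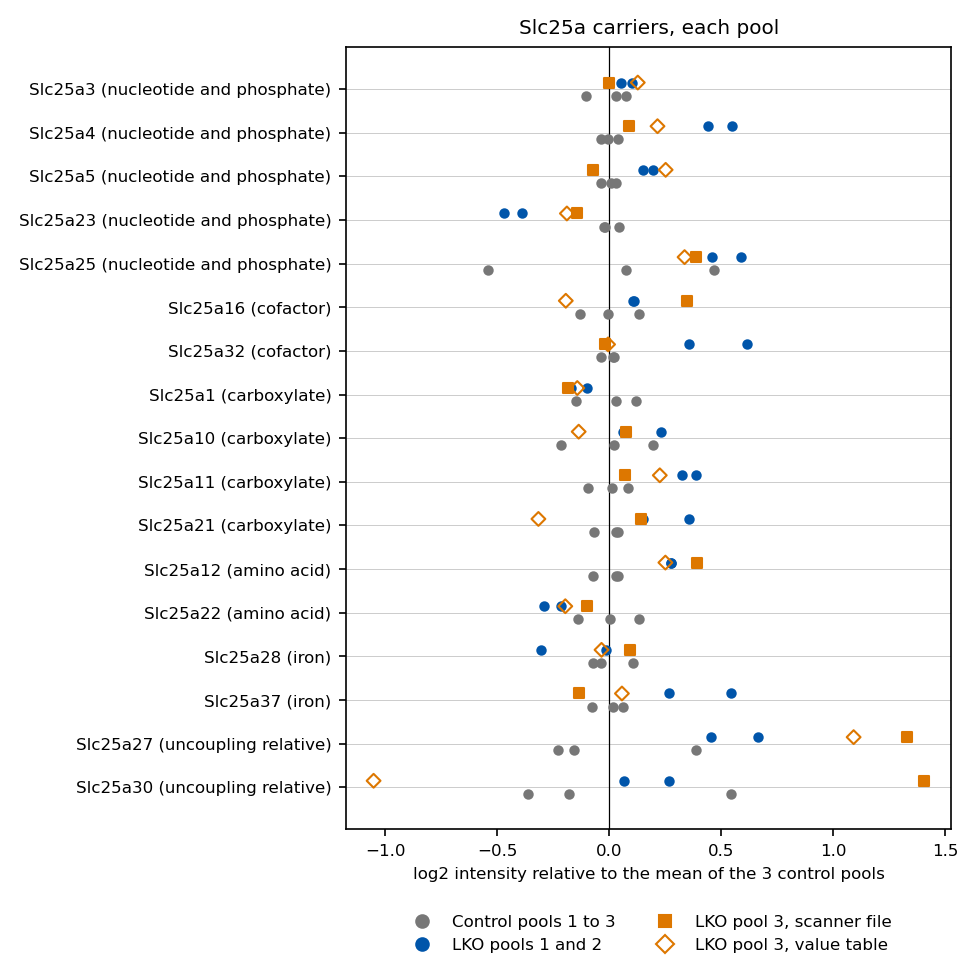
The x axis is the log2 intensity of each pool relative to the mean of the 3 control pools, for 17 Slc25 genes named by rule, ordered by role. Grey dots are controls, blue dots LKO pools 1 and 2, and orange marks LKO pool 3, as a square from the scanner file and as a diamond from the value table. For Slc25a12, Slc25a23, Slc25a4 and Slc25a27 all LKO marks lie to 1 side of the controls. For Slc25a5, Slc25a16, Slc25a21 and Slc25a30 the square and the diamond lie on opposite sides of the controls.

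The relatives of the uncoupling proteins held the largest difference and wide intervals. All 5 tested probes were higher in the LKO livers (median 0.62). Of these, 3 were higher with the value table, where the median was 0.05. Slc25a27, known as UCP4 and mainly a brain transcript, read -4.84, -4.22 and -4.77 in the controls and -3.95, -4.15 and -3.28 in the LKO pools. The LKO pools lay above the controls, with LKO pool 2 only 0.07 above control pool 2, and the difference was 0.82 (-4.61 ± 0.34 against -3.79 ± 0.46, 1.76-fold, 95% interval 0.17 to 1.46, adjusted p = 0.165). It was 0.56 without LKO pool 3. This probe is dim, and both other Slc25a27 probes were not well above background on all arrays of either group. Slc25a14, known as UCP5, differed by 0.08 (adjusted p = 0.727).

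Slc25a30 differed most between the deposited sources. At its brightest probe the controls read 0.19, -0.53 and -0.72 and the LKO pools -0.08, -0.28 and 1.05, so that only pool 3 stood above the controls, at a difference of 0.58 (95% interval -0.38 to 1.54, adjusted p = 0.437). In the value table LKO pool 3 read -1.40, below every other pool, and the difference was -0.24. The second probe read 0.34 in LKO pool 3 by the scanner file and -2.20 by the value table, and the junction probe printed above -2.69 and -4.38. Without pool 3 the 3 differences were 0.17, 0.34 and 0.44 (adjusted p of 0.334 to 0.727). Control pool 1 was the highest control at all 3 Slc25a30 probes.

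**Figure D4:**
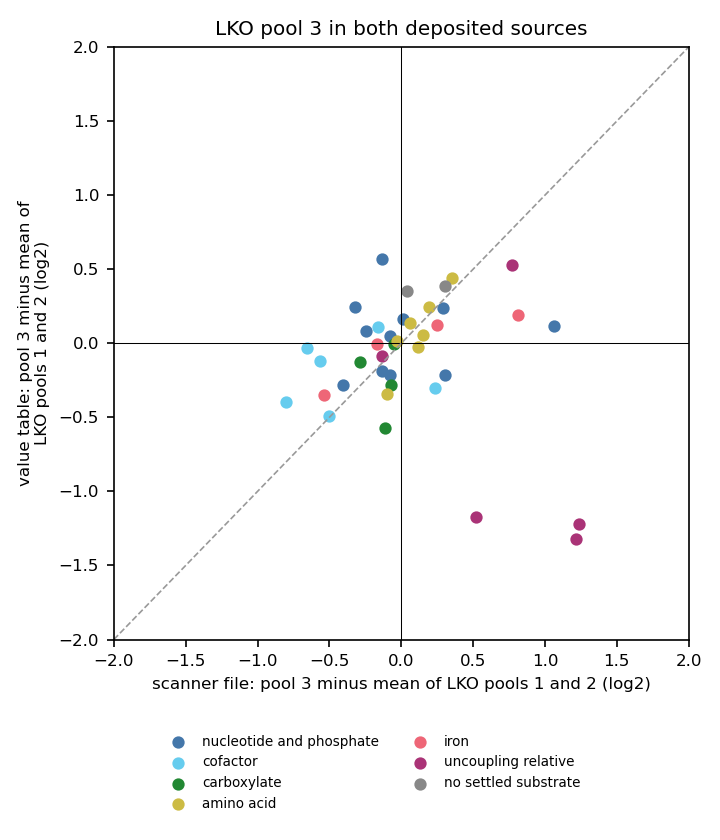
The axes give LKO pool 3 minus the mean of LKO pools 1 and 2 (log2), from the scanner file on x and from the value table on y, for the 39 tested Slc25 probes coloured by role; the dashed line marks equal values. The 3 probes at the lower right, high in the scanner file and low in the value table, belong to Slc25a30.

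Over the 39 Slc25 probes the scanner value of LKO pool 3 differed from that of the value table by more than 0.5 in 10 probes, by -0.70 (Slc25a36) to 2.53 (Slc25a30), with a median of -0.05. In the scanner file LKO pool 3 lay above both other LKO pools in 16 probes and below both in 17. The sign of the difference changed in 5 of the 39 probes with the value table and in 3 without LKO pool 3. By the SD of log2 differences over tested probes, the value-table column of LKO pool 3 lay 0.528 from the scanner file of that pool. It lay 0.450 to 0.502 from the controls, and 0.433 and 0.384 from LKO pools 1 and 2. The scanner file of LKO pool 3 lay 0.472 and 0.459 from those LKO pools. Which source holds this pool is not settled by the files.

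Among the 9 Slc25 genes with several tested probes, 4 had probes of opposite sign (Slc25a3, Slc25a4, Slc25a17 and Slc25a26). This list depended on LKO pool 3: with the value table the genes were Slc25a3, Slc25a26 and Slc25a30, and without the pool Slc25a3, Slc25a26 and Slc25a29. With all pools the probes of the other genes had the same sign, for example -0.12 and -0.15 for Slc25a35, which has no settled substrate and was above background on 2 and 1 of 3 control arrays. The 9 tested Slc25 genes outside the naming rule had 14 tested probes, with differences between -0.15 and 0.24, a median of 0.05 and adjusted p of 0.490 or more.

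Other members of the family are on the array under names that do not start with Slc25a. Ucp1, Ucp2, Ucp3, Mtch1 and Mtch2 carry their current symbols and were listed by name. The others carry older names, matched to current symbols of the RefSeq table. Together there were 26 probes, 21 of them tested for 14 genes. Of the tested probes 9 were higher and 12 lower in the LKO livers (median -0.01). None passed the threshold in limma and 7 of 21 had an unadjusted p under 0.05, against 21.2% of all tested probes. The groups did not overlap in 9 of the 21 (5 higher, 4 lower), against 28.8%. Probes of the same gene are counted separately here, with every tested probe of Slc25a46 and of Ucp2 among the non-overlapping ones. The shares describe the list and were not compared by a test. The genes given by pool here, other than Slc25a42 and Slc25a44, were chosen after their values were seen. Slc25a40, a carrier linked to glutathione import, read -4.99, -5.31 and -5.55 in the controls and -3.44, -4.11 and -4.12 in the LKO pools, all above the controls, at a measured difference of 1.39 (adjusted p = 0.0780). Only 1 of the 3 control pools, but every LKO pool, stood well above background at this probe. The Slc25a40 probe thus entered the test through the group where it is high, and its adjusted p is no support for a difference. The 7 and the 9 probes counted above include it. Slc25a39, the other carrier linked to glutathione, read 6.24, 6.41 and 6.45 in the controls and 6.62, 6.68 and 6.57 in the LKO pools, without overlap, at 0.26 (adjusted p = 0.206), but its dimmer probe differed by -0.19 (adjusted p = 0.524).

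Slc25a46, an outer membrane protein of mitochondrial shape control, was higher in every LKO pool than in every control at all 3 of its probes, with differences of 0.55, 0.23 and 0.22 (adjusted p of 0.0994, 0.204 and 0.278). With the value table the groups overlapped at the last of these, where LKO pool 3 read -2.58 and the difference was 0.12. Its brightest probe read 3.94, 3.90 and 3.96 in the controls and 4.17, 4.11 and 4.22 in the LKO pools. Slc25a48 read -2.90, -2.80 and -3.18 in the controls and -3.79, -4.23 and -3.44 in the LKO pools, all below the controls, at -0.86 (adjusted p = 0.118). Ucp2, an uncoupling protein that in liver is mainly a Kupffer cell transcript, read -1.86, -1.79 and -1.92 in the controls and -2.63, -2.17 and -2.32 in the LKO pools at its brighter tested probe, all below the controls, at -0.52 (adjusted p = 0.125), and differed by -0.71 at the other. Beside it, 6 of 7 tested Kupffer cell marker probes were lower and 1 higher, none past the threshold, with a summed relative intensity of 44.0 to 78.9 in the controls and 53.7 to 67.9 in the LKO pools, and their part in the Ucp2 values was not tested. Of those 7 marker probes, 5 were higher with the value table, where Ucp2 differed by -0.42.

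Slc25a47, a carrier found mainly in liver, read 6.92, 7.19 and 7.30 in the controls and 7.10, 7.39 and 6.90 in the LKO pools, a difference of -0.01 (95% interval -0.40 to 0.39, adjusted p = 0.986). Slc25a44, the carrier of branched-chain amino acids, read 0.38, 0.63 and 0.91 in the controls and 1.24, 1.26 and 0.37 in the LKO pools, with pools 1 and 2 above and pool 3 just below the controls, at 0.31 (adjusted p = 0.533, and 0.0871 without pool 3). Slc25a42, the coenzyme A carrier, read -2.66, -2.68 and -2.77 in the controls and -3.07, -2.95 and -2.38 in the LKO pools, with pools 1 and 2 below and pool 3 above the controls, at -0.10 (adjusted p = 0.790, and 0.0978 without pool 3, where it was -0.31). Ucp1 and Ucp3, the uncoupling proteins of brown fat and muscle, and Slc25a41 were not well above background on all arrays of either group.

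**Figure D5:**
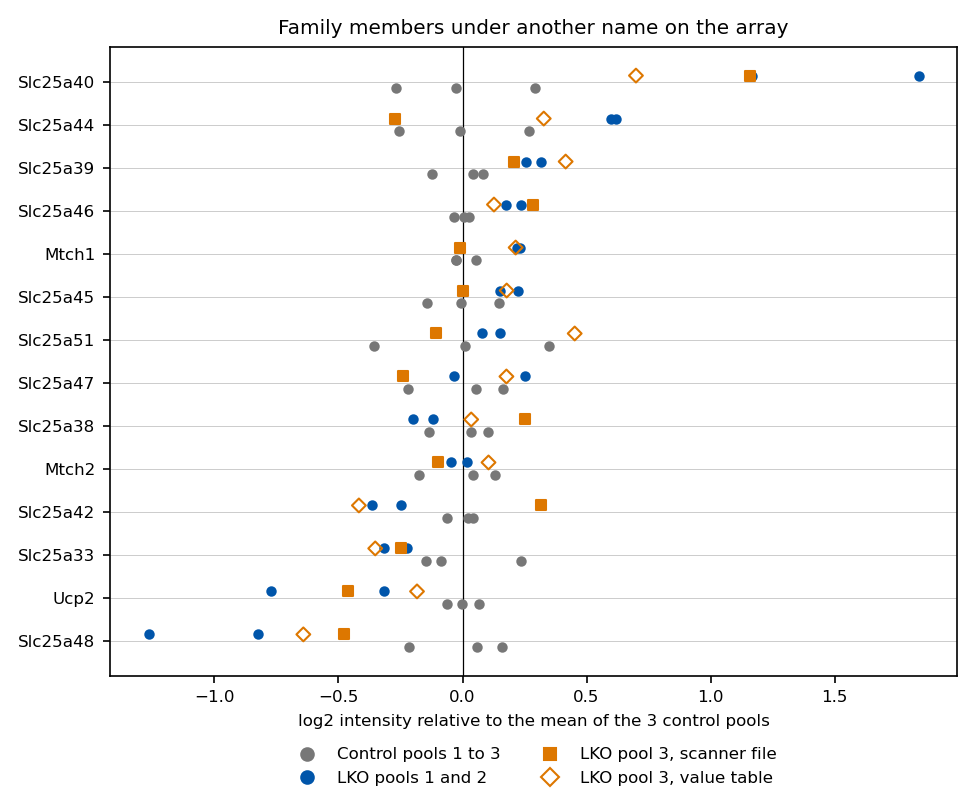
The x axis is the log2 intensity of each pool relative to the mean of the 3 control pools, for the brightest tested probe of 14 family members that the array lists under another name, ordered by difference, with marks as in the plot of the Slc25 genes by pool. Slc25a40 at the top lies to the right of the controls in all LKO pools, and Ucp2 and Slc25a48 at the bottom to the left.

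Of the carriers the rule leaves out, Slc25a15, the ornithine carrier of the urea cycle, differed by 0.40 (1.55 ± 0.10 against 1.96 ± 0.20, adjusted p = 0.159), and Slc25a20, the carnitine-acylcarnitine carrier, by -0.02 (adjusted p = 0.963). Other mitochondrial transport proteins (pyruvate carrier, porins, sideroflexins, calcium uniporter and ABC transporters) had 27 tested probes, 18 higher and 9 lower, with 0 past the threshold in limma and 7 at an unadjusted p under 0.05, against 21.2% of all tested probes (median 0.14). Their groups did not overlap in 9 higher and 5 lower probes, against 14.9% and 13.9%. The higher ones count both tested probes of Mpc1 and of Tspo. They also include a dim Mcu probe that entered the test only through the LKO pools. These shares were not compared by a test. Among the transport probes of lowest p were a probe of the sideroflexin Sfxn4 (-0.52, with a second, dim probe at 0.56) and a probe of Sfxn2 (-0.70, adjusted p = 0.173). That Sfxn2 probe passed without LKO pool 3 (-0.98, adjusted p = 0.0423), while the other Sfxn2 probe differed by -0.03. The import machinery that inserts carriers into the inner membrane had 25 tested probes, 15 higher and 10 lower (median 0.08). In limma 0 passed the threshold and 2 had an unadjusted p under 0.05, against 21.2% of all tested probes. Groups did not overlap in 3 higher and 3 lower probes, against 14.9% and 13.9% of all tested probes. The higher ones include a dim Tomm70a probe, given below, that entered the test only through the LKO pools. The lower ones include bright Tomm70a probes, also given below.

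Tomm20, an import receptor of the outer membrane, read 4.12, 4.14 and 4.25 in the controls and 4.91, 4.77 and 4.53 in the LKO pools. All LKO pools lay above the controls, at 0.57 (adjusted p = 0.0993), and this probe passed without LKO pool 3 (0.67, adjusted p = 0.0477), while the other Tomm20 probe differed by 0.20. Tomm70a, the receptor for carrier precursors, had a dim probe that was not well above background on any control array. Its control mean was -6.13 and its LKO mean -4.62 (limma, adjusted p = 0.0765). Each control array was then counted at its dimmest signal that is well above background, or at the probe's own signal if that is brighter. Against the mean of these stand-ins the LKO mean was 1.34-fold higher. Pool by pool this does not hold. The stand-in of control pool 2 (-4.49) lay above LKO pools 1 and 3 (-4.53 and -5.03). The probe entered the test only through the LKO pools, so its adjusted p is no support for a difference. That adjusted p was 0.0450 without LKO pool 3 and 0.0433 with the value table. The other Tomm70a probes, bright on all arrays, differed by -0.20, -0.17 and -0.03.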

How the data were processed

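Per the labels, 500 ng of pooled RNA from 2 livers was labelled with Cy3. The scanner files hold spot intensity from Agilent Feature Extraction 9.5 (named in the submitters' processing notes), which subtracted background and removed spatial trends within each array, per the file headers. The design text names the Rosetta Resolver error model. Linear intensity also fills the authors' value table, which equals the processed scanner signal in 5 of 6 samples. Flags for background, saturation and outliers are other values deposited in the scanner files. Here outlier spots were set missing, spots of 1 probe were averaged after log2, and the 75th percentile was subtracted. Every tested probe was fitted with limma 3.58.1 in R 4.3.3 (genotype only, two-sided). A gene is shown by its tested probe with the highest mean. Members, roles and lists were chosen with earlier results of these data known. Named by rule are Sirt1, the 12 Slc25 genes with the smallest p and 13 genes named whatever their result, of which Slc25a42 and Slc25a44 are on the array under another name. Other genes given by pool were chosen after their values were seen. RefSeq symbols (GRCm38.p6) were matched by accession for 22951 probes. On simulated data (10 draws, 200 of 23545 probes changed) limma found 14.4% of the 1.5-fold changes. It found 51.5% of those of 2-fold and 85.2% of those of 4-fold, none with a wrong sign, at 5.0 false calls per draw. The simulated arrays were independent, without a slide effect, whereas the correlation within slides in the data was 0.31. Recovery and false calls in the data can therefore differ from these figures. Alternatives were normexp (offset 50), quantile normalization, centring on the median, other filters, outlier spots kept, 1 probe per gene, blocks for the slide (random) and for the replicate number, the value table, and each pool left out. Some genes of these lists are not reported here. Figures used matplotlib 3.10.9.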

Additional observations from a re-analysis of the deposited data

How the results depend on the processing

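The count of Slc25 probes past the threshold was 0 under all 16 alternatives in limma, as it was for the 20 genes named by rule, and the lowest adjusted p of a Slc25 probe in any of them was 0.0522. The median difference of the Slc25 probes stayed between 0.06 (without control pool 1) and 0.17 (normexp). Over all tested probes the median was 0.02 without control pool 1 and 0.09 with normexp. The number of Slc25 probes whose groups did not overlap was 3 with normexp (15.5% of all probes there) and 12 with the value table, and ran from 7 to 17 when 1 pool was left out, where fewer arrays make separation easier (33.7% to 51.6% of all probes). With the slide as a random block 2 of 39 Slc25 probes had an unadjusted p under 0.05, against 11.2% of all probes. Of the 20 genes, 16 kept their sign under every alternative. Slc25a42 was 0.28 with normexp, and Slc25a30 was -0.24 with the value table. With 1 pool left out, Slc25a42 ran from -0.31 (without LKO pool 3) to 0.035 (without LKO pool 1), Slc25a28 from -0.16 (without LKO pool 3) to 0.039 (without LKO pool 1) and Slc25a3 from -0.0022 (without control pool 1) to 0.087 (without control pool 3). The cause was not tested. Replicate numbers share only a number (correlations of deviations 0.01, -0.04 and -0.09 for same-numbered pools). With the replicate number as a block 0 Slc25 probes passed, 0 of all 23591 probes passed against 15 without it, the median Slc25 difference was 0.10 and the lowest adjusted p of a Slc25 probe was 0.231. The number of arrays limits the precision.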
